A study of Mus musculus with 38 samples.

Results

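The genes described here are those whose transcript level differed after the first 6 h of retinoic acid (RA) exposure following removal of 2i/L medium, in the same direction in 2 assays and beyond the spread of the 2 undifferentiated bulk libraries. Mouse embryonic stem cells (mESCs) at 0 h were compared with cells at 6 h in bulk RNA-seq and in SCRB-seq, a plate-based single-cell RNA-seq method. Both assays count the 3′ ends of mRNAs through unique molecular identifiers (UMIs), short random tags that count each captured molecule once. A gene counted as changed in bulk when its level at 6 h lay outside both mESC libraries, the log2 gap to the nearer of them exceeded the log2 gap between them, and the exact 95% interval of the ratio left out 1. In SCRB-seq the interval of the ratio of UMIs summed over cells had to leave out 1. Of 23452 genes present in both tables, 7267 had at least 30 UMIs in each assay and were considered. Of these, 465 were kept, 234 higher at 6 h (3.22%) and 231 lower (3.18%). The values at 0 h and 6 h chose these genes, so they are a description and carry no test.

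All cells were E14 mESCs, an established line grown without feeder cells. The 0 h cells (labelled 2i) grew in 2i/L, which holds PD0325901 at 1 µM (an inhibitor of MEK, the kinase that activates ERK), CHIR99021 at 3 µM (an inhibitor of GSK3, which raises Wnt pathway activity), LIF at 1000 U/ml and human insulin at 20 µg/ml. The 6 h cells were seeded in 2i/L for 12 h, washed, and moved to N2B27 basal medium with 0.25 µM all-trans RA and without the inhibitors, LIF or the additional insulin. The bulk libraries were made from unsorted cells, 2 at 0 h and 1 at 6 h, and SCRB-seq from 1 plate of cells at each time, so 5 of the 38 samples of the series were used. No culture received the basal medium without RA for 6 h. The effect of RA and the effects of losing MEK inhibition, GSK3 inhibition, LIF and the additional insulin therefore cannot be told apart. This holds for every value given here.

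RA enters the nucleus and binds retinoic acid receptors (Rara, Rarb and Rarg) paired with retinoid X receptors. These dimers sit on short DNA elements near target genes and switch transcription on when the ligand arrives, which makes direct targets such as Cyp26a1, Rarb and Stra8 early readouts of exposure. The 2i inhibitors and LIF hold mESCs in naive pluripotency, a state resembling the preimplantation epiblast. When the inhibitors are withdrawn, ERK becomes active and its feedback inhibitors of the Spry and Dusp families are transcribed, while Wnt and LIF target genes lose their drive.

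The bulk libraries held 2285865 and 2297225 UMIs (mESC replicates 1 and 2) and 2045175 UMIs (6 h). Of 384 wells on each SCRB-seq plate, 282 at 0 h and 335 at 6 h exceeded 2000 UMIs and were used, with 1735424 and 2397280 UMIs in all. The plates used the same 384 well names, of which 258 were kept on both, and the log10 well totals of the plates had a Pearson correlation of 0.61 over the 384 wells. The wells above 20000 UMIs numbered 9 at 0 h and 16 at 6 h, all 9 lay at the same positions on the 6 h plate, and the wells above 20000 UMIs held 29.2% of the UMIs at 0 h and 28.7% at 6 h. Without them 194 higher and 204 lower genes were kept, of which 191 and 200 were among those described here. Below, 3 UMI numbers in a row are mESC replicate 1, mESC replicate 2 and 6 h in bulk, and a pair for SCRB-seq is 0 h and 6 h. They are as counted, whereas every ratio divides by these totals. Intervals throughout cover counting error only, not the spread between cultures. When the lone 6 h bulk library was assumed to vary like the replicated mESC, sorted ectoderm and sorted XEN libraries, edgeR's quasi-likelihood test called 0 of 10197 genes at a Benjamini-Hochberg adjusted p of 0.05. DESeq2 gave the same answer on these libraries. With 1 library at 6 h, counts of genes by unadjusted p are not read from either fit.

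Described first are Stra8, an RA-inducible germ cell gene, and Nr0b1 and Klf2, naive pluripotency regulators. The rule used the 0 h and 6 h values of these genes too, so they are no independent check of the labels. Stra8 (chr6:34920163-34939344, GRCm38, plus strand) had 48 and 12 UMIs in mESC replicates 1 and 2 and 78 UMIs at 6 h. In CPM, that is UMIs scaled to a library total of 1000000, these are 21, 5.22 and 38.1, and summed SCRB-seq UMIs went from 9 to 49. Stra8 was thus higher at 6 h in both assays, but the log2 gap of 0.86 to the nearer mESC library was smaller than the gap of 2.01 between these libraries, so it was not kept. In bulk libraries fewer cells with a transcript and less of it per cell cannot be told apart. Klf2 (chr8:72319033-72321656, plus strand) had 512 and 1021 UMIs in mESCs and 242 at 6 h, or 224, 444 and 118 CPM, with 720 and 341 SCRB-seq UMIs. It too missed the threshold, by a gap of 0.92 against 0.99. Nr0b1 (chrX:86191764-86195947, plus strand) was kept, with 595 and 532 UMIs in mESCs and 1029 at 6 h, or 260, 232 and 503 CPM. Its bulk level was 2.05-fold higher (95% interval 1.88-2.23) and its SCRB-seq level 2.40-fold higher (1.91-3.03).

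The bulk rule alone was met by 588 genes higher at 6 h (8.09%) and 428 lower (5.89%), and the SCRB-seq rule alone by 1993 higher (27.4%) and 2415 lower (33.2%). Of 662 genes that met both, 465 went the same way and 197 opposite ways. Among the kept genes the median log2 ratio was 0.71 in bulk and 0.89 in SCRB-seq for the higher group, and -0.84 and -0.97 for the lower group. At least a 2-fold difference in both assays was seen for 54 of the higher and 76 of the lower genes. Just inside the spread threshold were Fam60a and Gng2, with a gap 1.01 times the mESC gap, and just outside were Zbtb10 at 0.999 and Hells at 0.991 times. A wider set of 592 higher (8.15%) and 490 lower genes (6.74%) lay outside both mESC libraries, met the interval criteria and differed alike in SCRB-seq. With TMM and DESeq2 scaling in place of total UMIs the median SCRB-seq log2 ratio of all genes considered moved from -0.08 to 0.08 and 0.09. The share of SCRB-seq calls that were higher went from 45.2% to 55.3% and 56.6%, and that of bulk calls from 57.9% to 49.4% and 46.4%, while 201 and 193 of the 234 higher genes and 189 and 191 of the 231 lower genes were still kept. Genes of the wider set that missed the spread threshold are called outside both mESC libraries below.

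**Figure D1:**
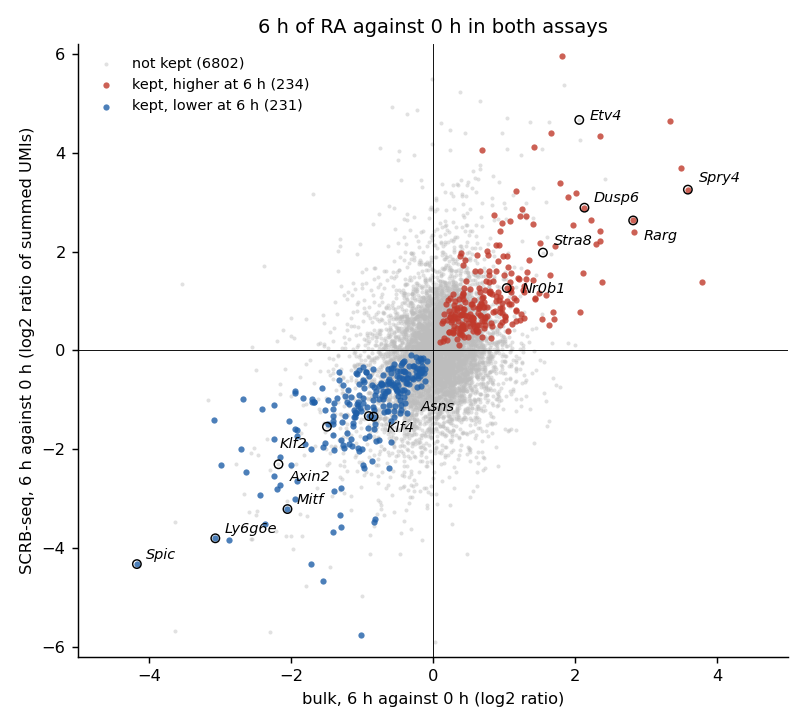
Log2 ratio of 6 h to 0 h in bulk (x axis, 6 h against the 2 mESC libraries summed) and in SCRB-seq (y axis, UMIs summed over cells), 1 point per gene considered. Red points are the 234 kept genes higher at 6 h and blue points the 231 lower, and circles mark named genes, of which Stra8, Klf2, Etv4 and Axin2 were not kept. Colour follows from the rule that chose the genes.

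The mESC libraries did not scatter evenly around the 6 h difference. Replicate 1 lay toward 6 h for most genes that differed in SCRB-seq. Of 483 genes at least 2-fold higher at 6 h in SCRB-seq and with at least 100 bulk UMIs, 413 (85.5%) were higher in replicate 1 than in replicate 2. Of 486 genes at least 2-fold lower, 358 (73.7%) were lower in replicate 1. Over all genes considered 55.6% were higher in replicate 1. The kept genes leaned the same way, with 162 of 234 higher genes (69.2%) above replicate 2 in replicate 1 and 152 of 231 lower genes (65.8%) below it. The spread threshold therefore removed genes along which the mESC libraries differed, among them Stra8, Klf2, Utf1, Etv4, Sp5 and Axin2. Against replicate 2 alone 885 higher and 707 lower genes met the remaining criteria, and against replicate 1 alone 341 and 310. What set the libraries apart was not tested, so bulk values are given below for each mESC library.

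**Figure D2:**
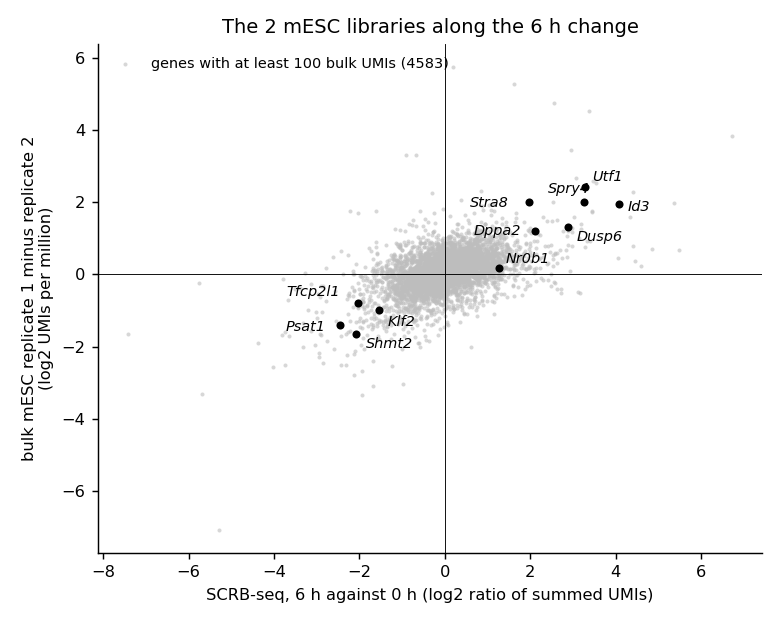
Difference between the mESC bulk libraries (y axis, replicate 1 minus replicate 2, log2 CPM) against the SCRB-seq log2 ratio of 6 h to 0 h (x axis) for 4583 genes with at least 100 bulk UMIs. Utf1, Stra8, Spry4, Id3, Dusp6 and Dppa2 lie at the upper right and Psat1, Shmt2, Klf2 and Tfcp2l1 at the lower left, whereas Nr0b1 lies near 0 on the y axis.

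Within the retinoid pathway the receptor gene Rarg was the only one kept. Rarg (chr15:102234938-102257517, minus strand), the retinoic acid receptor gamma, had 10 and 12 UMIs in mESCs and 69 at 6 h, so that both mESC libraries lay well below 6 h and close to each other. Its SCRB-seq UMIs went from 42 to 359. The bulk ratio was 7.03 (95% interval 4.30-11.9) and the SCRB-seq ratio 6.19 (4.49-8.73). Rara, the alpha receptor, had 12, 7 and 23 UMIs and met the bulk rule only (SCRB-seq 19 and 36 UMIs). Rarb, the beta receptor and a direct RA target, had no UMI in either mESC library and 4 at 6 h. The bulk ratio was 2.99 with the mESC count set to a floor of 3 over both libraries. Such a floored ratio is not a lower limit, because it leaves out counting error at 6 h. In SCRB-seq Rarb had only 1 UMI in the 335 cells at 6 h.

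Direct RA targets had few UMIs at this time. Of 19 RA target genes 6 were considered and 0 kept. In SCRB-seq 4 of the 6 were higher, beside 27.4% of all genes considered. Cyp26a1, which encodes the RA-degrading enzyme, had 2, 2 and 3 UMIs in bulk and 3 and 11 in SCRB-seq, and the intervals of its ratios, 0.246-9.93 and 0.701-14.8, both held 1. Crabp2, a cellular RA-binding protein, had 45, 36 and 61 UMIs in bulk and 2 and 17 in SCRB-seq. Cdx1 differed between the assays, lower in bulk (50, 49 and 20 UMIs) and higher in SCRB-seq (27 and 81 UMIs). None of the 15 anterior Hox genes reached 30 UMIs in both assays.

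The sequences before the start sites of some genes named above hold letters that match all or part of the RA receptor element pattern. Binding was not measured. The following stretches are the 250 bases upstream of a RefSeq start site in GRCm38.p6, read 5′ to 3′ on the gene's strand, with the matching letters in capitals. A direct repeat of 2 receptor half-sites spaced by 5 bases (DR5) was searched on both strands, and so was the single half-site AGGTCA, which can lie within a DR5. Cyp26a1 (chr19:37697558-37697807, plus strand) and Rarb (chr14:16575477-16575726, minus strand) are shown for their DR5, and Rarg (chr15:102257523-102257772, minus strand), Stra8 (chr6:34920698-34920947, plus strand) and Nr0b1 (chrX:86191525-86191774, plus strand) for the half-site.
Cyp26a1: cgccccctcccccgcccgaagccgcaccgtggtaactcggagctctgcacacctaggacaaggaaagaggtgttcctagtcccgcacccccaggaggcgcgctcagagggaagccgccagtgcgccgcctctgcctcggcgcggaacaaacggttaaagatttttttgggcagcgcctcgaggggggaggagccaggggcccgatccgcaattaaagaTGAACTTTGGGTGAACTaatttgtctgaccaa
Rarb: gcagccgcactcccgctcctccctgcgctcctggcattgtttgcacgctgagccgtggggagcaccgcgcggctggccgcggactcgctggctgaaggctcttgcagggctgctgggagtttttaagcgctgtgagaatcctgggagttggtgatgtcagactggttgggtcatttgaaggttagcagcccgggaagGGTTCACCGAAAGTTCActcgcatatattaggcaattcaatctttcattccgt
Rarg: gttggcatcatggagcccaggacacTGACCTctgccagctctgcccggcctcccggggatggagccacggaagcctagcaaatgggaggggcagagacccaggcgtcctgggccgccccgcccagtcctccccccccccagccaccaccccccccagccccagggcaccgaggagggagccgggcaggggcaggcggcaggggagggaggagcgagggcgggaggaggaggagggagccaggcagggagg
Stra8: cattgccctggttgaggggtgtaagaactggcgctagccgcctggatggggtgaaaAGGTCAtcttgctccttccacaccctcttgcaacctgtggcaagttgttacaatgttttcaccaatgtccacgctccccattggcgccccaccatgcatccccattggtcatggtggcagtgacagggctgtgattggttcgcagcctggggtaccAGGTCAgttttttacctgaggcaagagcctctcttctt
Nr0b1: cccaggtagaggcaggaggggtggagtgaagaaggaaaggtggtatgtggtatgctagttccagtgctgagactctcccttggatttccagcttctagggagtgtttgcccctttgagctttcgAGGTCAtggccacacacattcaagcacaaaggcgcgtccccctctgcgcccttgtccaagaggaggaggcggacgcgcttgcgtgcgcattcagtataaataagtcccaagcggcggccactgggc
The DR5 began at position -32 from the start site in Cyp26a1, on the opposite strand, and at -53 in Rarb. The half-site began at -225 in Rarg (opposite strand), at -194 and -38 in Stra8 and at -126 in Nr0b1. Rarg had 2 RefSeq start sites, and the window of the other, not shown, held no half-site. Over 27025 genes with such a window, 28 (0.104%) held a DR5 and 4260 (15.8%) held AGGTCA, so the half-site is common. A match describes the letters only.

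Of 19 ERK response genes 10 were considered and 4 were kept, all higher at 6 h, beside 3.22% of all genes considered. In SCRB-seq 8 of the 10 were higher and 1 lower, beside 27.4% and 33.2% of all genes considered. The median log2 ratio of the 10 was 0.66 in bulk and 1.75 in SCRB-seq, beside 0.05 and -0.08 over all genes considered. Spry4, a feedback inhibitor of receptor tyrosine kinase signalling, had 16 and 4 UMIs in mESCs and 107 at 6 h and led the list. It was 12.0-fold higher in bulk (95% interval 7.39-20.4) and 9.53-fold higher in SCRB-seq (6 and 79 UMIs, 4.19-26.8). Dusp6, a phosphatase that inactivates ERK, had 42, 17 and 115 UMIs, a bulk ratio of 4.37 (3.16-6.08), and 18 and 184 SCRB-seq UMIs. Both genes were well above both mESC libraries, and both were higher in mESC replicate 1 than in replicate 2.

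Spred1, a Sprouty-related inhibitor, was kept with 19, 22 and 40 UMIs and a bulk ratio of 2.19 (1.38-3.47). The proto-oncogene Myc was kept with 23, 12 and 49 UMIs, and in SCRB-seq with 2 and 58 UMIs, a ratio of 21 with a wide interval of 5.56-177. The Ets factor Etv4 was outside both mESC libraries but not kept, since they differed by 2.54 on the log2 scale (29, 5 and 63 UMIs). In SCRB-seq Etv4 went from 0 to 105 UMIs, a ratio of 25.3 with the 0 set to a floor of 3 counts over the kept cells. Its relative Etv5 went the other way, lower at 6 h than both mESC libraries with 127, 168 and 101 UMIs. Etv5 was also lower in SCRB-seq with 429 and 477 UMIs (ratio 0.805, 0.705-0.919), though not called there under TMM or DESeq2 scaling. Spry2 too lay below both mESC libraries in bulk (125, 75 and 53 UMIs), but it did not differ beyond counting error in SCRB-seq. Outside the list, Hbegf, an EGF receptor ligand, had 16, 18 and 77 UMIs and was 5.08-fold higher in bulk (3.35-7.84) and 5.35-fold higher in SCRB-seq (3.26-9.30).

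Of 13 Wnt response genes 3 were considered, Axin2, Sp5 and the Cdx1 described above, and 0 were kept. Axin2, a negative feedback regulator of the pathway, had 11 and 50 UMIs in mESCs and 6 at 6 h, and SCRB-seq UMIs of 93 and 26. Sp5, a transcription factor under Wnt control, had 9, 47 and 2 UMIs, a bulk ratio of 0.080 (0.00946-0.303), and 105 and 13 SCRB-seq UMIs. For both the mESC libraries differed by more than 2 on the log2 scale, with replicate 1 nearer to 6 h. Lef1, below the UMI minimum, had 0, 21 and 1 UMIs. The 250 bases upstream of Sp5 (chr2:70474673-70474922, plus strand, GRCm38.p6) are shown because they hold the letters CTTTGATC, a TCF-type site, in capitals.
Sp5: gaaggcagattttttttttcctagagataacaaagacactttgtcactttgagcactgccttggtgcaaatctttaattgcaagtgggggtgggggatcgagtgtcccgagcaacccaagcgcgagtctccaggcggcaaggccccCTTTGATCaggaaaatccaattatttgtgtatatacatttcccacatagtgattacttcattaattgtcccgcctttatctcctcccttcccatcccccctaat
The site began at position -104, and 250 of 27025 genes (0.925%) held these letters on either strand.

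**Figure D3:**
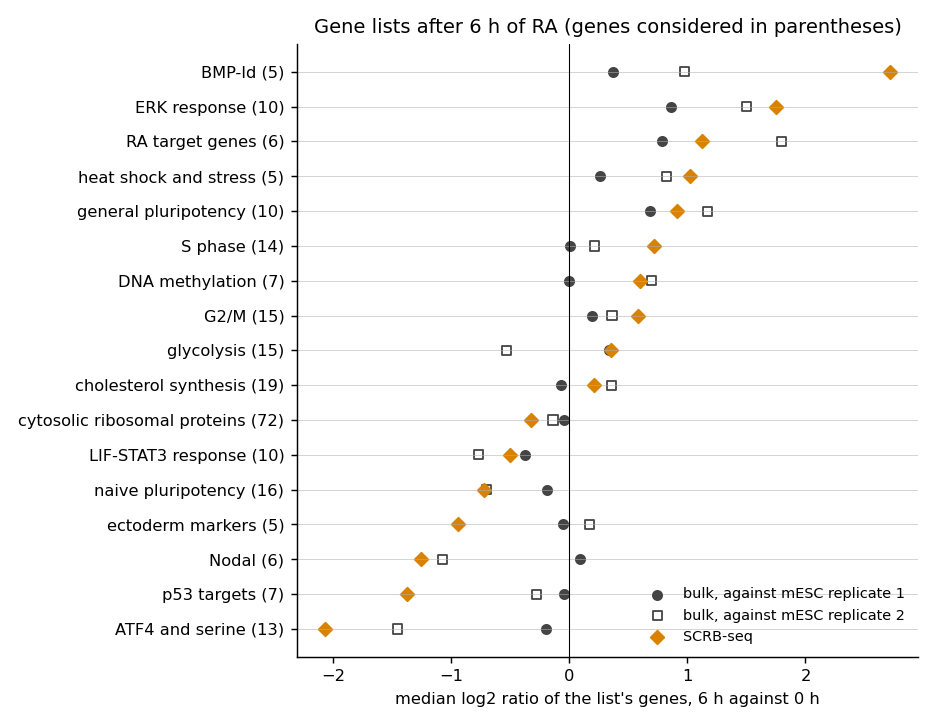
Median log2 ratio of 6 h to 0 h (x axis) for the gene lists with at least 5 genes considered (y axis, number of genes in parentheses). Circles are bulk against mESC replicate 1, open squares bulk against replicate 2, and diamonds SCRB-seq. The ERK response and general pluripotency lists lie above 0 by all 3 measures, and the ATF4 and serine list lies at -0.20 against replicate 1 but at -1.45 against replicate 2.

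The naive and the general pluripotency lists had medians of opposite sign. All 16 naive pluripotency genes were considered. In SCRB-seq 10 were lower and 4 higher, beside 33.2% and 27.4% of all genes considered. The list medians were -0.49 in bulk and -0.72 in SCRB-seq. Klf4, a naive transcription factor downstream of LIF, was the only one kept as lower, with 148, 172 and 76 UMIs and 731 and 402 SCRB-seq UMIs. Its bulk ratio was 0.532 (0.409-0.685) and its SCRB-seq ratio 0.398 (0.352-0.450). A further 7, namely Klf2, Klf5, Esrrb, Tfcp2l1, Dppa5a, Tcl1 and Fgf4, lay below both mESC libraries and were lower in SCRB-seq without being kept. Tfcp2l1 showed the largest SCRB-seq difference of these, with 1679 and 570 UMIs (bulk 314, 549 and 208).

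Nr0b1 and Nanog went the other way and were kept as higher. Nanog, a core pluripotency factor, had 373, 356 and 378 UMIs, or 163, 155 and 185 CPM, a bulk ratio of 1.16 (1.02-1.32), and a SCRB-seq ratio of 1.73 (1.58-1.90). It was not kept under TMM or DESeq2 scaling. Zfp42 lay between the mESC libraries in bulk (2535, 1813 and 1941 UMIs). Gbx2 lay below both mESC libraries in bulk (18, 31 and 13 UMIs) but went from 4 to 94 UMIs in SCRB-seq.

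Of 11 general pluripotency genes 10 were considered and 5 were kept, all higher at 6 h, beside 3.22% of all genes considered. The list medians were 0.97 in bulk and 0.91 in SCRB-seq. The bulk median was 0.68 against mESC replicate 1 and 1.17 against replicate 2. Dppa2 (chr16:48303908-48319723, plus strand), a chromatin-associated factor of early embryos, had 313, 137 and 658 UMIs, 3.28-fold higher in bulk (2.90-3.70), and 92 and 547 SCRB-seq UMIs. Its neighbour and partner Dppa4 had 148, 100 and 217 UMIs, 1.96-fold higher (1.63-2.36). L1td1, an RNA-binding protein, had 908, 747 and 1443 UMIs, and the zinc finger factor Sall4 had 255, 195 and 310 UMIs. In each of these 4 genes the 6 h value exceeded both mESC values.

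Utf1, a chromatin-associated factor, was outside both mESC libraries but not kept, with 144, 27 and 202 UMIs and 27 and 363 in SCRB-seq. Lin28a, an RNA-binding protein, stood likewise with 74, 32 and 149 UMIs. Pou5f1, the core factor Oct4, lay above both mESC libraries by less than they differed (265, 292 and 306 CPM), while Sox2 was lower in SCRB-seq (1318 and 870 UMIs) and lay between the mESC libraries in bulk CPM. Of 8 post-implantation epiblast genes only 2, Dnmt3a and Dnmt3b, were considered, and 1 was kept. The others, among them Fgf5, Pou3f1 and Otx2, were below the UMI minimum, so the list as a whole was not resolved. The de novo DNA methyltransferase Dnmt3a (chr12:3806007-3914443, plus strand) was kept as higher with 13, 19 and 74 UMIs. Its bulk ratio was 5.18 (3.38-8.11) and its SCRB-seq ratio 2.62 (1.81-3.88). Its relative Dnmt3b lay between the mESC libraries in bulk (92, 45 and 65 UMIs) and was higher in SCRB-seq (83 and 279).

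Among LIF-STAT3 response genes, 10 of 11 were considered and 2 were kept, both lower, beside 3.18% of all genes considered. Besides Klf4 this was Stat3 itself, the transcription factor activated by LIF, with 44, 53 and 24 UMIs, a bulk ratio of 0.554 (0.339-0.874) and a SCRB-seq ratio of 0.502 (0.391-0.642). Socs3, the feedback inhibitor of the pathway, had 48, 38 and 34 UMIs and differed beyond counting error in neither assay. The list medians were -0.62 in bulk and -0.50 in SCRB-seq. BMP pathway genes included 2 kept as higher of 5 considered, beside 3.22% of all genes considered. The list was not uniform, since in SCRB-seq 3 of the 5 were higher and 1 lower, beside 27.4% and 33.2% of all genes considered. Without being kept, Id3 lay above both mESC libraries and was higher in SCRB-seq, while Smad7 lay below both and was lower. Id1, an inhibitor of basic helix-loop-helix factors, had 6, 2 and 36 UMIs, 10.1-fold higher in bulk (4.61-25.1). In SCRB-seq Id1 went from 0 to 104 UMIs, a ratio of 25.1 with the 0 set to the same floor of 3 counts. The ligand gene Bmp4 had 36, 52 and 91 UMIs, 2.32-fold higher (1.71-3.14), and 23 and 209 SCRB-seq UMIs.

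Genes of the ATF4 amino acid response and of serine synthesis were lower at 6 h in SCRB-seq, whereas in bulk most of the difference was against mESC replicate 2. Of 13 considered, 12 were lower in SCRB-seq with a median log2 ratio of -2.07, beside 33.2% and -0.08 over all genes considered. In bulk the median was -0.20 against replicate 1 and -1.45 against replicate 2, and only Asns was kept. Without replicate 1, which removes the spread threshold, 11 were kept as lower, and without replicate 2 there were 3. Asns (chr6:7675169-7693254, minus strand), asparagine synthetase, had 2901, 2383 and 1315 UMIs, a bulk ratio of 0.558 (0.525-0.593), and 1505 and 821 SCRB-seq UMIs, a ratio of 0.395 (0.362-0.430). Psat1, an enzyme of serine synthesis, had 195 and 520 UMIs in mESCs and 166 at 6 h, so replicate 1 was close to 6 h. Chac1, a glutathione-degrading enzyme, had 8, 25 and 3 UMIs in bulk. It went from 113 to 0 UMIs in SCRB-seq, a ratio of 0.0192 with the 0 set to a floor of 3 counts. Trib3, a pseudokinase, had 8, 23 and 4 UMIs and 198 and 10 in SCRB-seq. Slc7a3, an amino acid transporter, was the exception, higher in bulk with 184, 230 and 310 UMIs and with a SCRB-seq interval that held 1 (0.990-1.40). It was kept as higher under TMM or DESeq2 scaling.

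The windows before Asns (chr6:7693210-7693459, minus strand) and Chac1 (chr2:119350992-119351241, plus strand), again 250 bases in GRCm38.p6, hold a C/EBP-ATF response element of the form TGATGNAA, in capitals.
Asns: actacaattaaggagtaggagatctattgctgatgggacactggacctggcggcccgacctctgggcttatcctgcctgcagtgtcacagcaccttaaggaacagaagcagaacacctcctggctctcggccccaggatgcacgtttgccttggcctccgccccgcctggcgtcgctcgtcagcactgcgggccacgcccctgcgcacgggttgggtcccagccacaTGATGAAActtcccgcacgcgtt
Chac1: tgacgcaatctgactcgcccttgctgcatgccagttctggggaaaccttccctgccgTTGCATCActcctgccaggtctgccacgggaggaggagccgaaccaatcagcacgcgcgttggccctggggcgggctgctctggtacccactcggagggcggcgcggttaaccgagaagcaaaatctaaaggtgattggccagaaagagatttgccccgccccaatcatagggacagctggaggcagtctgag
The element began at position -23 in Asns and at -193 in Chac1, on the opposite strand. It was present in 1056 of 27025 genes (3.91%) and in 3 of the 13 list members with a window, Asns, Chac1 and Slc7a11.

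Cytosolic ribosomal protein genes were slightly lower, and by how much depended on the scaling. All 72 were considered, and in SCRB-seq 60 were lower and 4 higher, beside 33.2% and 27.4% of all genes considered. The medians were -0.10 in bulk and -0.33 in SCRB-seq. They took 28.7% and 30.2% of the UMIs of the mESC libraries and 27.8% at 6 h, and 17.3% and 14.1% in SCRB-seq. Of these genes 15 were kept as lower and 0 as higher, beside 3.18% and 3.22% of all genes considered. Under TMM or DESeq2 scaling only 9 or 10 were kept as lower and 1 as higher. Cdkn1a, the cell cycle inhibitor p21, was the only p53 target kept of 7 considered, lower with 179, 264 and 95 UMIs and 335 and 117 in SCRB-seq, a bulk ratio of 0.481 (0.381-0.601). The glucose transporter gene Slc2a1 (69, 74 and 120 UMIs, 1.88-fold, 1.46-2.41) and the hexokinase gene Hk2 (185, 216 and 293 UMIs) were kept as higher, but the direction of the 15 glycolysis genes in bulk depended on the mESC library. Their median log2 ratio was 0.33 against replicate 1, -0.53 against replicate 2 and 0.35 in SCRB-seq. Among 15 G2/M genes Top2a, a DNA topoisomerase, and Cenpf, a kinetochore protein, were kept as higher, with bulk ratios of 1.37 (1.26-1.49) and 1.19 (1.08-1.31). The lists of cholesterol synthesis (19 considered), S phase (14), Nodal (6), heat shock (5) and Notch genes (2) had 0 genes kept. Over all genes considered 3.22% were kept as higher and 3.18% as lower, so 0 kept in such short lists does not show that they were unchanged. In SCRB-seq 5 of the 6 Nodal and 2 of the 2 Notch genes were lower. Of the 5 heat shock genes 4 were higher and 1 lower, and of the 19 cholesterol synthesis genes 8 were higher and 3 lower.

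The 12 genes in each direction with the largest difference in the weaker of the 2 assays, and at least 50 UMIs on the higher side of each, are called leading genes. Besides Spry4, Rarg, Hbegf, Dusp6 and Dppa2, the leading higher genes were Tor3a, Sult4a1, Gadd45a, Phf6, Pnp, Slc7a7 and Xbp1. Sult4a1, a sulfotransferase family member, had 30, 10 and 91 UMIs and was 20.3-fold higher in SCRB-seq (5 and 140 UMIs, 8.48-63.4) but 5.10-fold higher in bulk (3.48-7.59). Pnp, purine nucleoside phosphorylase, had 71, 53 and 217 UMIs and 49 and 395 in SCRB-seq. Phf6, a chromatin-associated finger protein, had 50, 19 and 124 UMIs and 7 and 88 in SCRB-seq. All 3 lay above both mESC libraries.

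Gadd45a, a growth arrest and DNA damage gene of the insulin-FOXO list, had 28, 10 and 79 UMIs, 4.66-fold higher in bulk (3.13-7.05). Xbp1, a transcription factor of the unfolded protein response, had 76, 47 and 172 UMIs, 3.13-fold higher (2.47-3.98). The amino acid exchanger gene Slc7a7 had 22, 17 and 75 UMIs, and the torsin gene Tor3a 15, 5 and 63. For these 4 genes too the 6 h value was above both mESC values, with replicate 1 the nearer.

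The leading lower genes were Spic, Ly6g6e, Ctsc, Rnd3, Pla1a, Mitf, Sord, Gng2, Yes1, 1700097N02Rik, Myh13 and Btg1. Spic, an Ets-family transcription factor, had 57 and 24 UMIs in mESCs and 2 at 6 h, a bulk ratio of 0.0553 (0.00659-0.206), and 58 and 4 UMIs in SCRB-seq. Ly6g6e, a Ly6-family surface protein gene, had 54, 59 and 6 UMIs, a ratio of 0.119 (0.0428-0.267), and 101 and 10 in SCRB-seq. Mitf, a basic helix-loop-helix factor best known from melanocytes, had 50, 99 and 16 UMIs and 248 and 37 in SCRB-seq, ratios of 0.241 (0.134-0.404) and 0.108 (0.0743-0.153). These genes were low at 6 h against both mESC libraries.

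Ctsc, the lysosomal protease cathepsin C, had 124, 192 and 26 UMIs, and Rnd3, a small GTPase, had 65, 86 and 13. Yes1, a Src-family kinase, had 69 and 71 UMIs in mESCs, almost equal, and 19 at 6 h, with 320 and 111 in SCRB-seq. Sord, sorbitol dehydrogenase, had 38, 94 and 9 UMIs, and Pla1a, a phospholipase, had 47, 149 and 11. The remaining lower genes spanned bulk ratios from 0.243 for 1700097N02Rik to 0.378 for Btg1, an antiproliferative gene. Gng2, a G protein gamma subunit gene, was the leading gene nearest to the spread threshold.

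**Figure D4:**
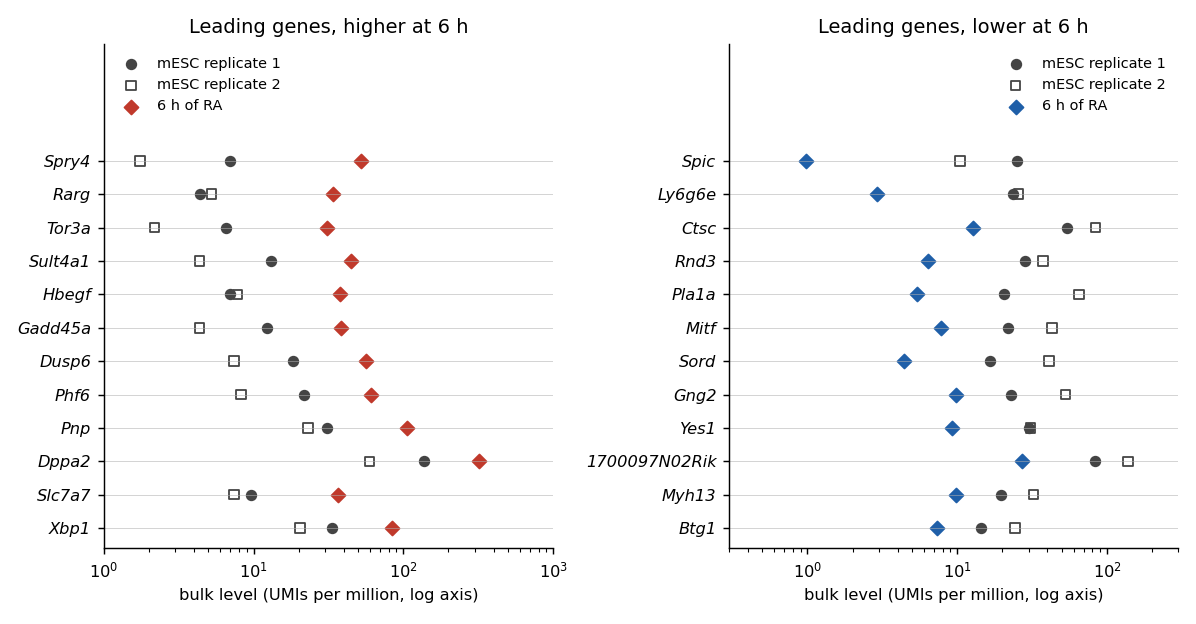
Bulk level (CPM, log axis) of the 12 leading genes in each direction. Filled circles are mESC replicate 1, open squares mESC replicate 2 and diamonds 6 h of RA, 1 library each, with no error bars because the 6 h condition has 1 library. The diamond lies outside both mESC libraries for every gene, as the rule required, from 52.3 against 7.00 and 1.74 for Spry4 to 0.978 against 24.9 and 10.4 for Spic.

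Shares of cells with a UMI are given at equal depth and come from the same UMIs that the rule used. For this, each cell was thinned to 2000 UMIs, which kept 267 cells at 0 h and 329 at 6 h and left out 15 and 6 shallower cells. The median depth before thinning was 3596.5 UMIs at 0 h and 4802 at 6 h. Rarg was detected in 3.37% of cells at 0 h (95% exact interval 1.55-6.30) and 24.3% at 6 h (19.8-29.3), and Dppa2 in 7.87% (4.93-11.8) and 31.6% (26.6-36.9). Dusp6 was detected in 1.87% (0.611-4.32) and 13.7% (10.2-17.9). Each time is 1 plate, so these intervals cover the counting of cells and not the spread between cultures. Unthinned, the shares of Rarg were 10.6% and 49%, those of Dppa2 15.6% and 54.6% and those of Dusp6 4.26% and 29.6%.

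In the other direction Asns was detected in 73.4% of cells at 0 h (67.7-78.6) and 42.2% at 6 h (36.9-47.8), Mitf in 21% (16.2-26.4) and 2.43% (1.06-4.73), and Klf2 in 50.6% (44.4-56.7) and 21.3% (17-26.1). Stra8 was detected in 1.12% (0.232-3.25) and 3.34% (1.68-5.90) (2.84% and 10.1% unthinned). As a background, each of 6 fibroblast feeder markers, which feeder-free mESCs should lack, was detected in at most 0.749% of thinned cells at 0 h and 1.22% at 6 h. Summed over the 12 leading higher genes a thinned cell had on average 0.330 UMIs at 0 h and 1.88 at 6 h, and cells without any such UMI made up 72.3% and 21.9%. For the leading lower genes the mean went from 1.95 to 0.350 UMIs and the share of cells without any from 21% to 74.8%. The sums contain the genes the rule chose and are descriptive.

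Markers of other cell types were examined next. None of the 6 mesoderm, 6 fibroblast feeder and 6 markers of 2-cell-like cells reached the UMI minimum. The feeder markers together took 0.00153%, 0.000392% and 0.00127% of the UMIs in the mESC and 6 h bulk libraries, and the mesoderm markers 0.000437%, 0.000522% and 0.000538%. In SCRB-seq the shares were 0.000115% and 0.00100% for the feeder markers and 0.00144% and 0.000501% for the mesoderm markers. The 2-cell-like markers took at most 0.000522% in bulk. The XEN markers took more, 0.0281%, 0.0197% and 0.0321% in bulk and 0.0398% and 0.0347% in SCRB-seq, and the ectoderm markers 0.0213%, 0.0192% and 0.0208% in bulk and 0.0244% and 0.0197% in SCRB-seq. Among defining XEN factors, Sox17 was in no thinned cell at either time, and Gata4 and Gata6 were in at most 0.608%. Of 11 XEN markers 3 were considered. In SCRB-seq 2 of these 3 were lower and 1 higher, beside 33.2% and 27.4% of all genes considered. Lamc1, a laminin chain, was kept as lower (56, 69 and 37 UMIs). Sparc, a matrix protein, lay above both mESC libraries (504, 292 and 535) and was in 23.6% and 32.8% of thinned cells. Lama1, another laminin chain, was in 17.6% of thinned cells at 0 h and 3.95% at 6 h. Of 5 ectoderm markers considered, 3 were lower in SCRB-seq and 1 higher, beside the same 33.2% and 27.4%. Such short lists say little about a direction. Mdk, a growth factor, was in 22.1% and 24.9% of thinned cells. Cd24a, a surface marker, lay below both mESC libraries, was lower in SCRB-seq and was in 12.4% and 6.69%. Ectoderm and trophoblast markers had 0 genes kept of 5 and 2 considered, and the part of any of these markers in the values above was not tested.

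The later bulk libraries show which early differences lasted. They stand beside the same 0 h libraries that the rule used, and each time is 1 library, so their values are given side by side with no test. Stra8 went from 38.1 CPM at 6 h to 260 at 12 h and 578 at 24 h, and was 27.2 at 96 h. Nr0b1 was highest at 6 h, with 503 CPM, then 379 at 12 h, 120 at 24 h and 30.9 at 36 h. Rarg went more slowly from 33.7 CPM at 6 h to 28.2, 23.4 and 12.1 at 12, 24 and 36 h and 3.66 at 48 h. Spry4 was likewise highest at 6 h (52.3 CPM, then 24.7 at 12 h), whereas Dusp6 stayed between 46.7 and 90.2 CPM from 12 h to 72 h.

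Dnmt3a went on from 36.2 CPM at 6 h to 93.4 at 12 h and 165 at 24 h, and Dppa2 from 322 to 414 and 283. Bmp4 was at 4.98 CPM at 24 h, below both mESC libraries (15.7 and 22.6), and Id1 was at 2.49 at 24 h but at 41.4 at 60 h. Klf2 continued down from 118 CPM to 69.6 at 12 h and 18.4 at 24 h. Spic and Ly6g6e stayed at or below 0.881 CPM from 12 h on. Other lower genes were high again later, as Btg1 with 7.33 CPM at 6 h and 95.3 at 96 h, Sord with 4.40 and 70.7, and Cdkn1a with 46.5 and 117. Cyp26a1 had 1.47 CPM at 6 h and 5.29, 40.8 and 64.1 at 12, 24 and 36 h, and Crabp2 29.8 at 6 h and 982 at 48 h.

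**Figure D5:**
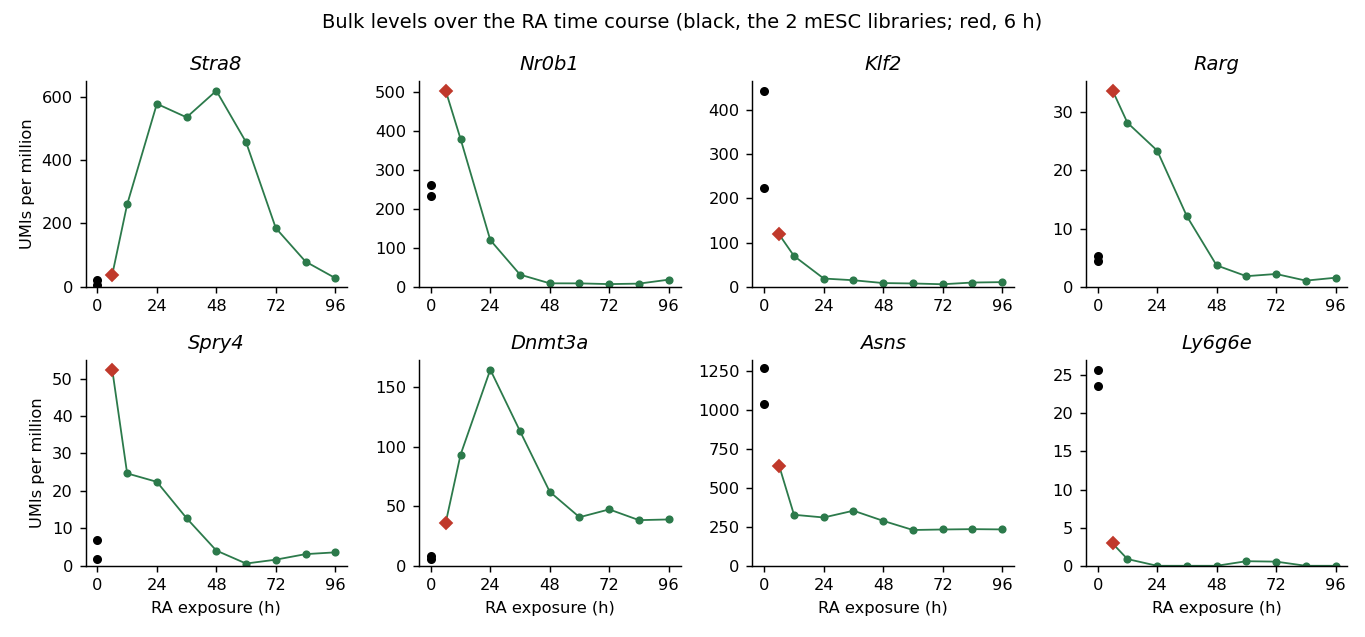
Bulk level (CPM, linear axis from 0) over hours of RA exposure for 8 genes. Black points are the mESC libraries at 0 h, the red diamond is 6 h and green points are later times, 1 library each. Nr0b1, Rarg and Spry4 are highest at 6 h, Stra8 and Dnmt3a are higher at 24 h than at 6 h, and Klf2, Asns and Ly6g6e are lower at 12 h than at 6 h.

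A full-length single-cell method, SMART-seq2, offers a measurement with 0 h cells of its own, at 12 h rather than 6 h. It held 82 cells at 0 h and 86 at 12 h, 1 sample each, as RPKM, read counts scaled by transcript length and library depth. Of the 234 higher genes 230 had a mean of at least 1 RPKM at 0 h or 12 h and a value at both, and 141 (61.3%) had a higher mean at 12 h, beside 41.7% of all genes considered with a value. Of the 228 lower genes with a value 194 (85.1%) had a lower mean. That share stands beside a majority of all genes, since only 41.7% of these were higher as deposited. With every cell brought to 1 common total, the 0 h median, 190 higher genes (82.6%) were higher, beside 63.8% of all genes. Of the lower genes 152 (66.7%) were then lower, whereas most of all genes were higher. Medians of the log2 ratio were 0.11 and -0.34 as deposited, beside -0.06 over all genes, and 0.28 and -0.16 scaled, beside 0.12.

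Of the leading genes 11 of 12 higher and 12 of 12 lower ones had the same direction at 12 h (12 and 10 after scaling). Nr0b1 went from 112 to 246 RPKM, Dusp6 from 19 to 59.8, Dppa2 from 119 to 278 and Xbp1 from 51.1 to 120. Rarg (27.1 and 34.6) and Spry4 (17.2 and 22) had ratios closer to 1, and Pnp (28.1 and 27) kept its direction only after scaling. Stra8 went from 45.9 to 246 RPKM and Cyp26a1 from 0.347 to 35.5. Among lower genes Mitf went from 27.2 to 7.64, Ly6g6e from 25.8 to 5.91, Asns from 745 to 313 and Cdkn1a from 161 to 42.2. Sp5 went from 37.1 to 0.865 RPKM and Axin2 from 29.2 to 5.71, both in the direction of the bulk and SCRB-seq values. Genes of the ATF4 list differed among themselves here, with Asns lower while Chac1 had 2.55 and 8.05 RPKM and Psat1 130 and 116. Nanog was lower at 12 h in this assay (268 and 137), whereas bulk at 12 h (233 CPM) lay above both mESC libraries.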

How the data were processed

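Bulk RNA-seq and SCRB-seq measured mESCs at 0 h and cells after 6 h of RA, with later times and SMART-seq2 cells for comparison. The bulk and SCRB-seq tables deposited by the authors hold UMI counts per gene: reads were aligned with bwa 0.7.4 to mouse RefSeq mRNAs of mm10, mitochondrial sequence and ERCC spike-ins, and each UMI was counted once per gene and well. No strand setting is stated, so overlapping antisense genes could share counts, and near-identical paralogs, as among ribosomal protein genes, are uncertain. The SMART-seq2 values are RPKM that the authors made with TopHat and Cuffnorm, so no count test was applied to them. Because reads came from 3′ ends, bulk and SCRB-seq levels were compared between samples and never between genes.

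Counts were scaled to the total UMIs of the library or of the summed kept cells, Rn45s and 2 genes with a damaged value being left out of the genes considered. Intervals of ratios are exact 95% intervals conditional on the summed counts, and shares of cells carry Clopper-Pearson intervals. Depth was 2045175 to 2297225 UMIs per bulk library. With 1 library at 6 h no difference was tested. The pooled fit used edgeR 4.0.16 and DESeq2 1.42.0 in R 4.3.3 on 7 bulk libraries, and other steps used Python 3.11.15 with scipy 1.17.1. The rule and the edgeR step were tried on simulated counts in which the mESC libraries had equal means. For the rule, the simulated SCRB-seq counts held counting error only. Neither run shows how the rule behaves when the mESC libraries differ, as they did here. The study's methods call the mESC libraries biological replicates, and the labels do not say whether they came from separate cultures. Gene positions are from GENCODE M21 and promoters from RefSeq, both on GRCm38. Of the 465 genes kept, 337 (72.5%) matched a RefSeq promoter by symbol, so no motif share over them is given. Doublets were not called in the plate data, and wells with very high totals were left out in an alternative. The genes named are Stra8, Nr0b1, Klf2, the 12 leading genes in each direction, the members of the gene lists and the genes at the threshold, of which some are not reported here. The members and the lists were chosen with earlier results of these data known. Alternatives covered scaling, UMI minima, wells, the mESC libraries, the spread and interval criteria and the summing over cells.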

Additional observations from a re-analysis of the deposited data

How the results depend on the processing

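Among 2488 bulk and SCRB-seq log2 ratios of named genes under the alternatives, 115 had the other sign, 62 of them without 1 mESC library, and 0 of these were of a value that had met its assay's rule. Of the ratios, 2383 moved by less than 1 SD of the mESC libraries in bulk, or stayed within the counting interval in SCRB-seq, and 105 moved by more. The median of the glycolysis genes in bulk went from -0.28 to 0.33 without replicate 2. Counts of genes depended most on the mESC libraries and on the criteria. Leaving out 1 mESC library, which removes the spread threshold, gave 886 to 1654 bulk genes higher, 760 to 1075 lower, 341 to 885 kept higher, 310 to 707 kept lower and 41 to 87 kept members of the gene lists (25 as reported). The larger numbers came without replicate 1. The set kept without replicate 1 held 205 of the 234 higher and 201 of the 231 lower genes, and that without replicate 2 held 187 and 185. Asking only that 6 h lie outside the range of the mESC libraries gave 1229 and 832 bulk genes, 592 and 490 kept genes and 61 list members. A gap above 2 times the mESC gap gave 359 and 278, 143 and 152, and 13. Without the interval criterion there were 1203 and 959 bulk genes, 3362 and 3905 SCRB-seq genes and 635 and 638 kept genes, higher and lower. A ratio of at least 1.5 in both assays gave 341 and 267 bulk genes and 126 and 143 kept genes. At least 100 UMIs in each assay left 271 bulk genes lower, 1314 and 1324 SCRB-seq genes higher and lower, and 149 kept lower, from fewer genes considered (3948). No filter beyond 1 UMI gave 3785 SCRB-seq genes lower. Averaging over thinned cells, each weighted equally, gave 1097 and 1450 SCRB-seq genes and 150 genes kept as higher, of which 146 were among the 234. The edgeR and DESeq2 fits over 7 libraries called 0 and 0 bulk genes higher and 0 and 0 lower. The other scalings, 2 other well minima, the wells above 20000 UMIs and the totals without 9 genes kept every count of kept genes within 1.5 times. The last 2 were chosen after seeing the data. No paired analysis was possible because the 6 h condition has 1 bulk library and 1 SCRB-seq plate, so fewer than 2 replicate numbers are shared. The causes of these shifts were not tested beyond what each alternative removes. At 2045175 to 2297225 UMIs per bulk library, genes such as Cyp26a1 and Rarb could not be resolved at 6 h.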

Other observations

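The assays disagreed on some genes. Of 197 genes called in opposite directions, 131 were higher in bulk and lower in SCRB-seq, and 66 the reverse. By the smaller of the 2 differences, and chosen after their values were seen, the first gene of each kind was Heatr5b, higher in bulk with 6, 8 and 19 UMIs in the mESC and 6 h libraries and lower in SCRB-seq with 21 and 10, and Lrrfip1, lower in bulk with 14, 15 and 4 UMIs and higher in SCRB-seq with 0 and 37. Pim1, a kinase gene of the LIF-STAT3 list, had 40, 40 and 24 UMIs in bulk and 39 and 162 in SCRB-seq. The ten-eleven translocation gene Tet1, which encodes a DNA demethylating enzyme, met the bulk rule as higher (112, 156 and 253 UMIs) but did not differ beyond counting error in SCRB-seq (650 and 883).

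Of 14 S phase genes 10 were higher at 6 h in SCRB-seq, beside 27.4% of all genes considered, and 0 by the bulk rule, beside 8.09%, with medians of 0.71 and 0.09. The rules are unlike, since the bulk rule adds the spread threshold, and 6 S phase genes were higher in bulk without mESC replicate 1 and 2 without replicate 2. Of 15 G2/M genes 10 were higher in SCRB-seq and 4 in bulk, and 9 and 5 in bulk without replicate 1 and replicate 2. Ccne1, the cyclin of the G1/S transition, was outside both mESC libraries with 73, 30 and 113 UMIs and went from 26 to 285 in SCRB-seq. Median UMIs per kept cell went from 3596.5 to 4802 between the same plates. The part of depth in these values was not tested.

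A group of 9 genes, Ogdh, Ppp1r16b, Sec23ip, Gmeb1, Luc7l2, Dennd5b, Pbld1, Ttf1 and Slfn5, was picked after its values were seen because its members were high together in SCRB-seq cells. Its median share of a cell's UMIs was 4.07% at 0 h, 7.33% at 6 h, 8.88% at 36 h and 3.51% at 96 h. In bulk the share was 0.785% and 0.672% in the mESC libraries, 0.826% at 6 h and 1.71% at 24 h. Only Ogdh was among the kept genes. Leaving these genes out of the SCRB-seq totals gave 246 higher and 222 lower kept genes, of which 233 and 222 were among those described. The lefty genes, antagonists of Nodal, gave some of the widest gaps between the mESC libraries: Lefty2 had 1 and 134 UMIs in mESC replicates 1 and 2 and 1 at 6 h, and 787 and 28 in SCRB-seq.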
